A study of Mus musculus and Homo sapiens with 10 samples.

Results

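The 2-oxoglutarate dioxygenases (2OGXs) are enzymes that use molecular oxygen, ferrous iron and 2-oxoglutarate to hydroxylate or demethylate a substrate, releasing succinate. Vitamin C (vitC) serves them as a reducing agent that returns the iron to its ferrous state. In embryonic stem cells they are best known as erasers of histone, DNA and RNA methylation, and other members act on proteins, tRNA, fatty acids and carnitine precursors. The genes described here are 40 listed members outside the TET, EGLN and collagen hydroxylase groups. They comprise Jumonji C (JmjC) domain proteins (not all, since Kdm5d and others are left out), the AlkB homologues with Fto, and a set of metabolic and protein dioxygenases. They were chosen by function, by a rule that uses no measured value, though earlier results of these data were known. Of the 40 symbols, 38 were among the 25899 genes of the mouse table (Tyw5 and Tmlhe were not found under these symbols), and 40 were among the 35720 genes of the human table.

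RNA-seq libraries were compared from E14 mouse embryonic stem cells (mESCs) in 2i medium with LIF, which holds cells in naive pluripotency, and from human embryonic stem cells (hESCs) labelled H9, in KSR/FGF medium. For hESCs in this medium the study's methods describe H9-NK2, an H9 line carrying doxycycline-inducible KLF2 and NANOG transgenes with a Venus reporter, and H9 itself in another medium. The labels do not say whether the hESCs sequenced carried the transgenes, and name neither doxycycline nor a gene deletion. Each line is a single established line. In each, cells given vitC at 100 µg/ml for 24 h were set against untreated cells, with 4 control and 4 vitC libraries of mESCs and 1 control and 1 vitC library of hESCs. The mESC libraries carry the numbers 10, 11, 35B and 35C in their labels. These are called cultures here, though the labels do not say what the numbers stand for. Each number has 1 control and 1 vitC library, and the 4 numbers are taken as 4 pairs. The data record transcripts, not enzyme activity.

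The mESC libraries held between 3354852 and 6921305 reads assigned to genes. Cultures 10 and 11 stood apart from 35B and 35C over all genes, and rRNA repeats took 42.0 to 51.5% of the repeat counts in the former and 60.0 to 63.1% in the latter. Between control and vitC the ranges overlapped, at 45.1 to 60.5% and 42.0 to 63.1%. Within pairs, the share fell with vitC in cultures 10 (51.5 to 44.2%) and 11 (45.1 to 42.0%). It rose with vitC in 35B (60.5 to 63.1%) and 35C (60.0 to 61.6%), and its part in the vitC differences was not tested. The list of naive markers, which includes Pou5f1 and Sox2, had 12 of 12 genes measured in mESCs. It summed to 5445 to 6145 CPM (gene reads scaled to a common library total), with Pou5f1 at 1047 ± 171 CPM (SD, n = 4) in controls. Primed markers summed to 411 to 489 CPM over 7 genes. Fibroblast markers summed to 8.86 to 21.8 CPM over 9 genes, with Dcn at 0 reads in all 8 libraries. Germ layer markers summed to 6.54 to 25.9 CPM over 11 genes, with Mesp1 at 0 reads. The hESC libraries held 15367652 and 17188555 gene reads, and carried SOX2 at 353 and 354 CPM and POU5F1 at 67.3 and 68.2 CPM in control and vitC. The same naive list summed to 740 and 741 CPM in hESCs, and the primed list to 969 and 947 CPM. SOX2 and POU5F1 were thus read in hESCs too, and the naive sum alone does not separate naive from primed cells. Fibroblast markers summed to 1820 and 1696 CPM there over 9 genes, most of it COL1A1 at 1182 and 1098 CPM. COL1A2 followed at 419 and 381 CPM and THY1 at 126 and 128 CPM, while DCN was at 0 reads in both. In bulk RNA, fewer cells of a type and less RNA per cell cannot be told apart.

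Most of the family was transcribed in mESCs, and 36 of the 38 genes present could be tested. The demethylase Kdm4d had 1 read in all mESC libraries together, and Bbox1, the last enzyme of carnitine synthesis, had 0 reads, which allows up to 0.433 to 0.894 CPM per library (3 counts of each total). Levels were compared between genes as CPM per kilobase of exon. The H3K4 demethylase Kdm5b stood highest in controls at 85.0 ± 10.3 (SD, n = 4). It was followed by the H3K9me1/2 demethylase Kdm3a at 53.7 ± 1.44 (SD, n = 4) and by Jarid2, a Polycomb partner without demethylase activity, at 52.4 ± 6.16 (SD, n = 4). Kdm3b followed at 47.2 ± 7.42, Kdm5c at 46.9 ± 3.56, Hspbap1 at 45.3 ± 6.37, Alkbh5 at 42.96 ± 2.06 and Jmjd6 at 42.2 ± 3.86 (SD, n = 4 each).

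Neighbours in this order mostly lay within each other's spread. The mean ± SD ranges of adjacent genes were apart at only 5 places among the 36, namely below Kdm5b, Jmjd6, Jmjd1c, Ogfod2 and Phf2. The KDM4 enzymes, which remove methyl groups from H3K9me3 and H3K36me3, held middle ranks, with Kdm4a at 25.3 ± 1.38, Kdm4c at 22.1 ± 3.04 and Kdm4b at 12.9 ± 1.35 (SD, n = 4 each). The lowest tested genes were Phf2 at 1.08 ± 0.220, Hr at 0.505 ± 0.117 and P4htm at 0.392 ± 0.129 (SD, n = 4 each). P4htm, a transmembrane prolyl hydroxylase, rested on 4 to 13 reads per library and Hr, a JmjC co-repressor of nuclear receptors, on 4 to 27.

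**Figure D1:**
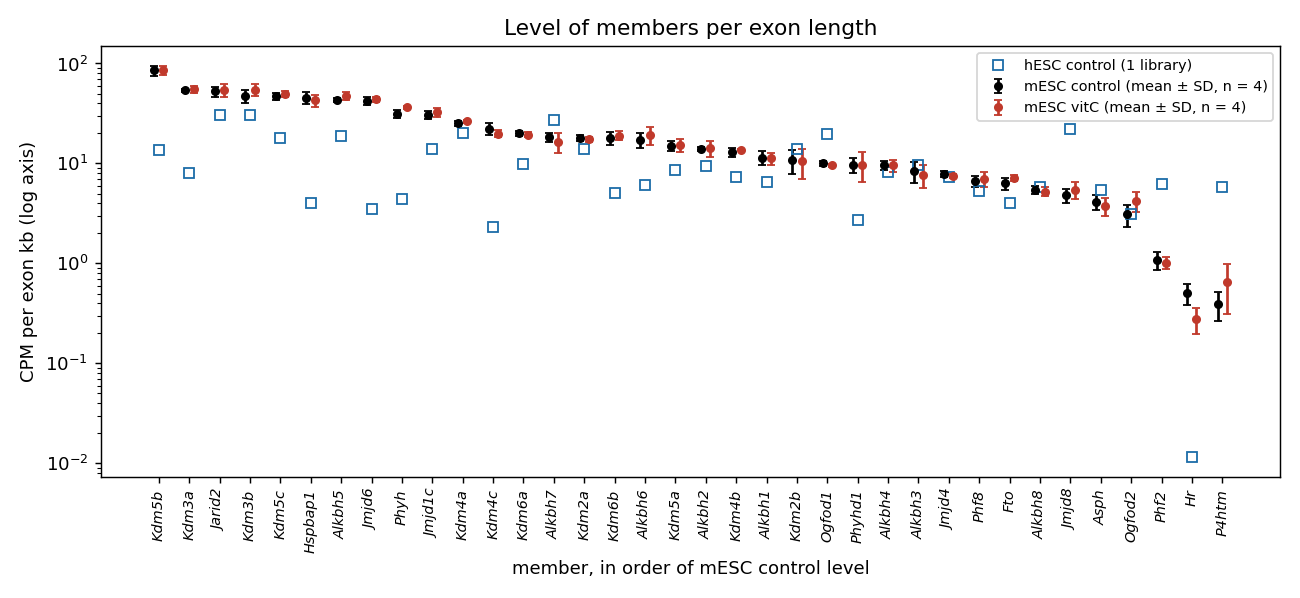
Level of each gene with a mESC control level above 0.1, in CPM per exon kilobase on a log axis, in order of the mESC control level. Points and bars are the mean ± SD of 4 mESC libraries in control (black) and vitC (red), and open squares are the single hESC control library. The black and red points of Kdm5b lie together at 85.0 and 85.4, while those of the lowest genes stand apart, at 0.505 and 0.279 for Hr and 0.392 and 0.651 for P4htm in control and vitC, with bars that overlap for P4htm.

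To ask whether vitC altered the transcripts of the enzymes it serves, control and vitC mESCs were compared with limma over 14631 genes, on the deposited variance-stabilised values, a log2-like scale that compresses the differences of genes with few reads. Without regard to the pairs, 0 of the 36 genes passed the threshold of 0.05 on the adjusted p, against 0.342% of all genes tested (47 higher and 3 lower). At an unadjusted p under 0.05, limma held 1 member higher (Phyh) and 1 lower (Hr), and edgeR and DESeq2 on recovered reads called 0 members as well, each with 1 higher and 1 lower at the unadjusted level. The median difference of the 36 was 0.024 on this scale, beside -0.0020 over all genes, and 21 of 36 lay above 0, beside 49.0% of all genes. For 28 of the 36, the difference was under 0.1 in size. The standard errors ran from 0.055 to 0.19.

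With the pair as a block in the same model, the standard errors ran from 0.031 to 0.065 and 4 of the 36 genes rose with vitC, beside 6.36% of all genes. They were Kdm3b, Alkbh5, Fto and Phyh. None of the 36 passed lower in that limma fit, beside 4.44% of all genes. At an unadjusted p under 0.05, that fit held 7 of the 36 higher and 2 lower, beside 1961 and 1711 of the 14631 genes. In edgeR with the block, the same 4 rose, beside 7.24% of all genes, and Hr fell, beside 6.07%. The 4 genes that rose belong to different roles: a histone demethylase, both known demethylases of N6-methyladenosine (m6A) in RNA, and a peroxisomal enzyme of fatty acid breakdown. Leaving out each pair in turn from the block fit, Kdm3b passed in 4 of 4 fits, Alkbh5 in 1, Fto in 1 and Phyh in 0.

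**Figure D2:**
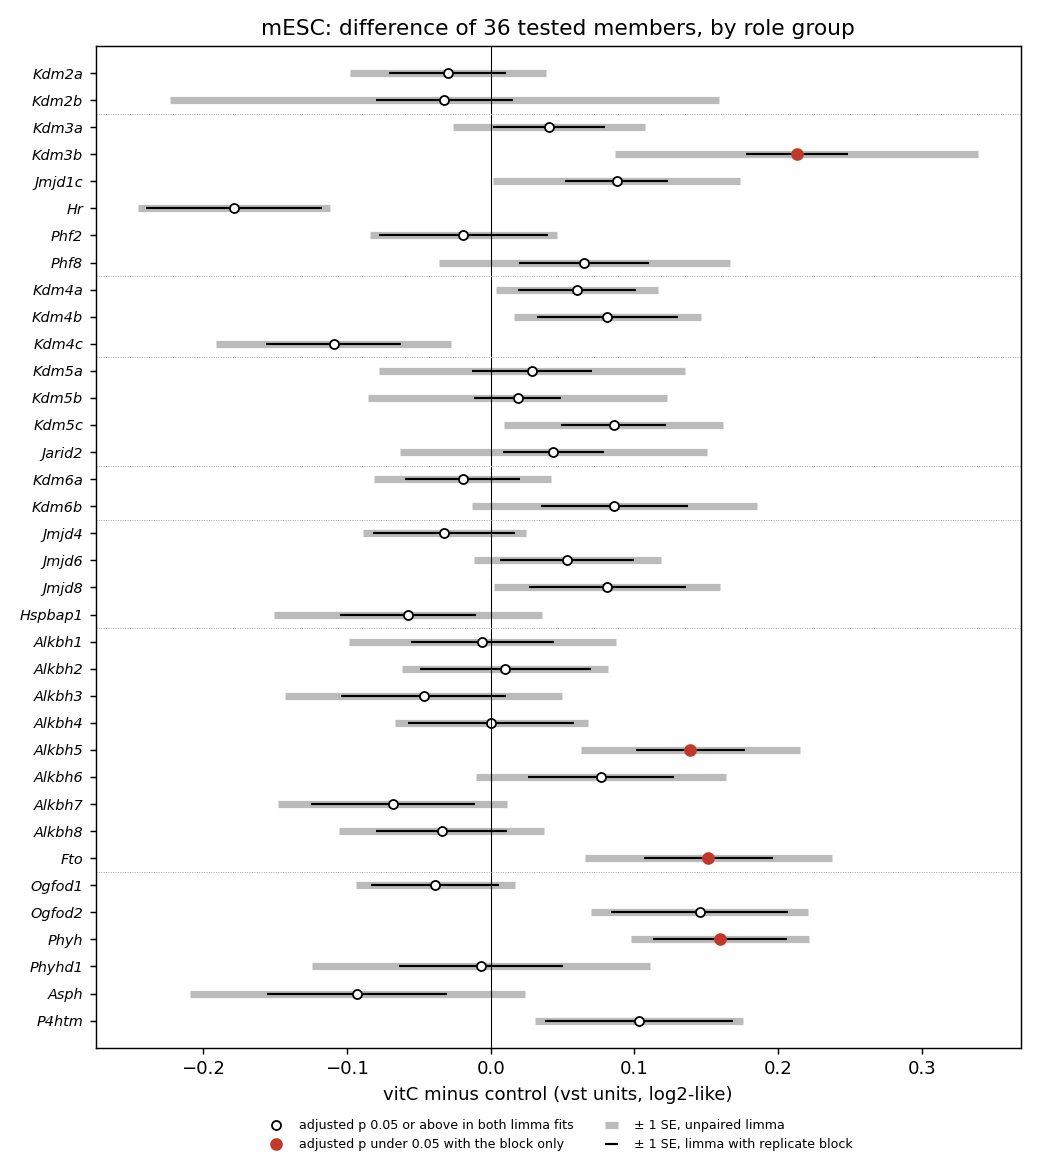
Difference between vitC and control mESCs for the 36 tested genes, in variance-stabilised (log2-like) units, with dotted lines between role groups. Grey and black bars are ± 1 standard error in limma without and with the replicate block, and red points mark genes with an adjusted p under 0.05 with the block only. The 4 red points are Kdm3b, Alkbh5, Fto and Phyh, at 0.14 to 0.21.

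Among the H3K9me1/2 demethylases and their relatives, 6 genes were tested and 1 rose. Kdm3b (chromosome 18, 34777047 to 34838660, plus strand, GRCm38) stood at 10.96, 11.03, 10.68 and 10.58 in the control libraries of cultures 10, 11, 35B and 35C, and at 11.09, 11.28, 10.93 and 10.81 in their vitC partners. Each culture was higher with vitC, by 0.12, 0.25, 0.25 and 0.23, while the groups overlapped because 35B and 35C began lower. The mean difference of 0.21 had a standard error of 0.13 unpaired (limma adjusted p = 0.772) and 0.036 with the block (limma adjusted p = 0.000647). On 1182 to 2630 reads per library, edgeR with the block gave a fold change of 1.17. Of its 14095 annotated exon bases, 3468 overlap a non-coding RNA on the opposite strand, Gm26538, and whether the counting used strand is not given in the sources used here.

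Kdm3a (chromosome 6, 71588972 to 71632990, minus strand, GRCm38), the closest relative of Kdm3b, did not move in one direction. Its values were 10.58, 10.59, 10.58 and 10.50 in control and 10.70, 10.69, 10.52 and 10.50 in vitC, in the same order of cultures. VitC was higher in cultures 10 and 11 and lower in 35B and 35C, and the mean difference was 0.040 (standard error 0.067, limma adjusted p = 0.943, 0.569 with the block). Jmjd1c was higher in 4 of 4 pairs at 0.088 (limma adjusted p = 0.883, 0.129 with the block). The PHD finger proteins Phf2 and Phf8 differed by -0.019 and 0.065, neither past the threshold in either fit.

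Hr (chromosome 14, 70552212 to 70573548, plus strand, GRCm38) is named for its call in edgeR, after its values were seen. It had 22, 20, 10 and 27 reads in control and 10, 11, 4 and 12 in vitC, in cultures 10, 11, 35B and 35C. Every pair was lower with vitC. On the variance-stabilised scale the difference was -0.18 (standard error 0.067, limma adjusted p = 0.537, 0.0688 with the block). The edgeR fit with the block, on the reads themselves, gave a log2 fold change of -0.85 (standard error 0.29, adjusted p = 0.0432).

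The KDM4 enzymes showed no vitC call in any fit. Kdm4a (chromosome 4, 118136957 to 118180043, minus strand, GRCm38) was at 9.52, 9.68, 9.65 and 9.63 in control and 9.65, 9.66, 9.69 and 9.72 in vitC, 0.060 higher on average (standard error 0.057, limma adjusted p = 0.876). Kdm4b (chromosome 17, 56326062 to 56402870, plus strand, GRCm38) was at 8.66, 8.87, 8.64 and 8.81 in control and 8.84, 8.84, 8.82 and 8.81 in vitC, and the 4 vitC values lay inside the range of the controls. Its difference was 0.081 (standard error 0.065, limma adjusted p = 0.841), with 2 pairs higher and 2 lower.

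Kdm4c (chromosome 4, 74242497 to 74405860, plus strand, GRCm38) leaned the other way. It was at 9.12, 9.19, 9.44 and 9.37 in control and at 9.10, 9.13, 9.17 and 9.27 in vitC. Each pair was lower with vitC, by between 0.019 in culture 10 and 0.27 in culture 35B, and the groups overlapped. The mean difference was -0.11 (standard error 0.082, limma adjusted p = 0.831, 0.151 with the block).

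**Figure D3:**
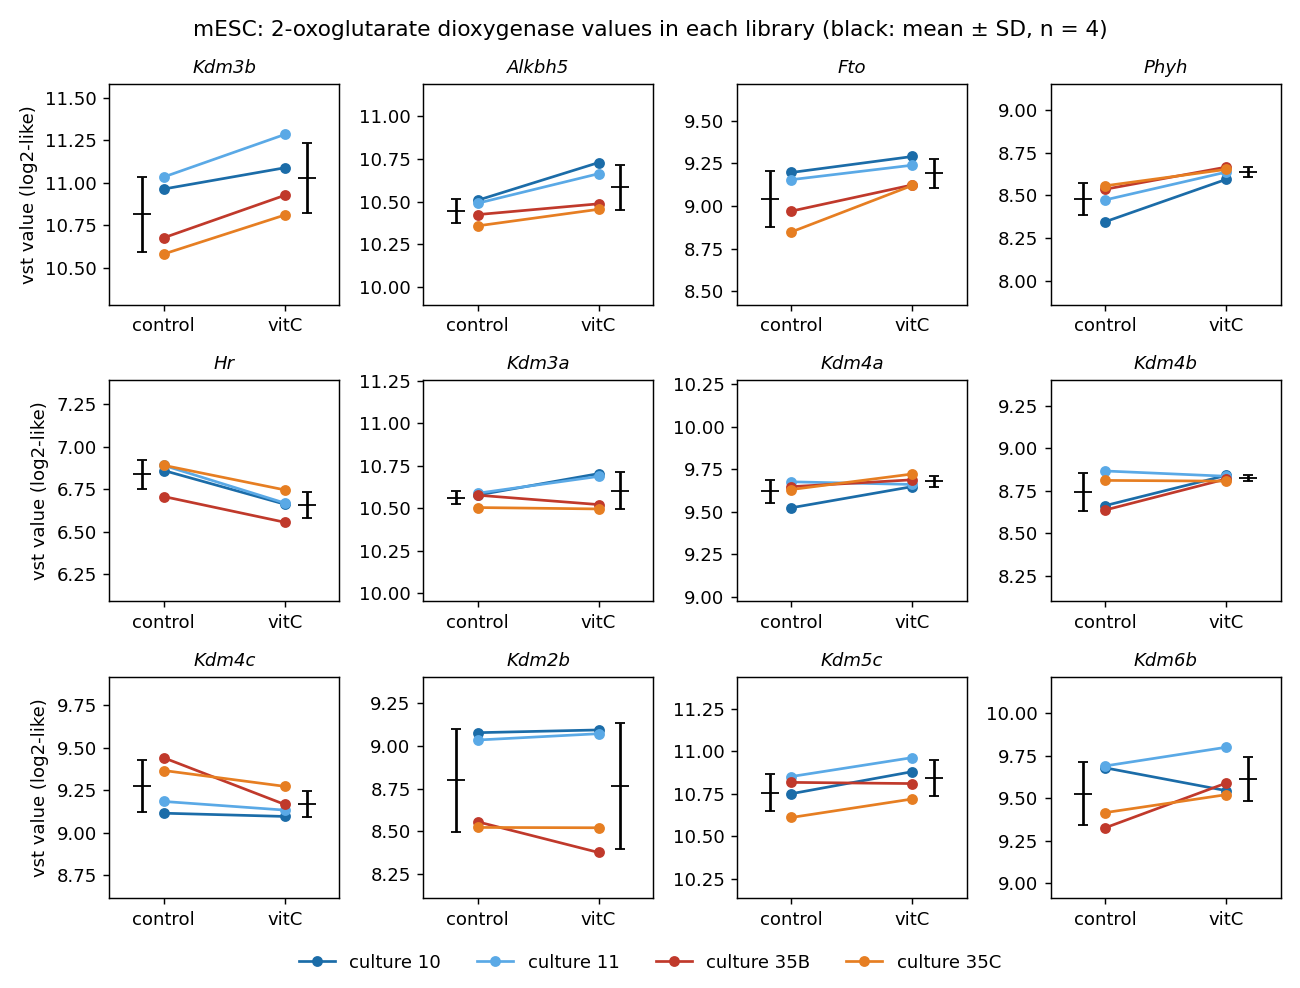
Variance-stabilised (log2-like) value in each mESC library for 12 genes, with a line joining the control and vitC libraries of one culture. Colours mark the 4 cultures, black marks give the mean ± SD of 4 libraries, and every panel spans the same height. All 4 lines go up for Kdm3b, Alkbh5, Fto and Phyh and down for Hr and Kdm4c, and the blue cultures (10 and 11) sit above the red and orange ones (35B and 35C) for Kdm2b.

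The remaining histone demethylases of the family differed by less than 0.1. The H3K36 demethylases Kdm2a and Kdm2b, which bind unmethylated CpG DNA, differed by -0.030 and -0.032. Kdm2b (chromosome 5, 122870665 to 122989823, minus strand, GRCm38) was at 9.08, 9.04, 8.55 and 8.52 in control and 9.09, 9.07, 8.37 and 8.52 in vitC, with the cultures far apart and the treatments close (limma adjusted p = 0.987, 0.732 with the block).

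Of the 4 genes in the KDM5 and Jarid2 group, all of which had a difference above 0, Kdm5c differed most. Kdm5c (chromosome X, 152233020 to 152274535, plus strand, GRCm38), an H3K4 demethylase, was at 10.75, 10.85, 10.82 and 10.61 in control and 10.88, 10.96, 10.81 and 10.72 in vitC. It was higher in 3 of 4 pairs, by 0.086 on average (standard error 0.076, limma adjusted p = 0.859, 0.146 with the block). Kdm5b, the most abundant gene of the family, differed by 0.019 (standard error 0.10, 0.031 with the block).

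Kdm6b (chromosome 11, 69398508 to 69413675, minus strand, GRCm38), an H3K27 demethylase, was at 9.68, 9.69, 9.33 and 9.41 in control and 9.54, 9.80, 9.59 and 9.52 in vitC. The difference of 0.086 (standard error 0.099) had 3 pairs higher and 1 lower, and the X-linked Kdm6a differed by -0.020. Among the proteins with little beyond a JmjC domain, Jmjd8 differed most. Jmjd8 (chromosome 17, 25828867 to 25831843, plus strand, GRCm38) was at 7.28, 7.36, 7.50 and 7.37 in control and 7.27, 7.46, 7.56 and 7.53 in vitC, on 48 to 74 reads per library (difference 0.081, limma adjusted p = 0.882). Of its exon bases, 1084 of 2759 overlap Stub1 on the other strand.

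Of the 9 AlkB homologues including Fto, 2 rose in the paired fit, beside 6.36% of all genes, and each of these passed in 1 of 4 fits with a pair left out. They were the m6A demethylases Alkbh5 and Fto. Alkbh5 (chromosome 11, 60536381 to 60558512, plus strand, GRCm38) was at 10.51, 10.49, 10.42 and 10.36 in control and 10.73, 10.66, 10.49 and 10.45 in vitC. It was higher in every pair, by 0.22, 0.17, 0.063 and 0.097, with an overlap between groups that came from the cultures. Its mean difference was 0.14 (standard error 0.076, limma adjusted p = 0.757, unpaired, and 0.0236 with the block), and its fold change in edgeR with the block was 1.11.

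Fto (chromosome 8, 91313525 to 91668439, plus strand, GRCm38) was at 9.20, 9.15, 8.97 and 8.85 in control and 9.29, 9.24, 9.12 and 9.12 in vitC. All pairs were higher with vitC, by 0.094, 0.085, 0.15 and 0.27. The mean difference was 0.15 (standard error 0.086, limma adjusted p = 0.767, unpaired, and 0.0361 with the block), and the fold change in edgeR with the block was 1.14. The other 7 AlkB homologues, which repair alkylated DNA or modify tRNA and proteins where their substrates are known, differed by -0.068 to 0.077 and did not pass in either limma fit.

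In the metabolic and protein group, 6 genes were tested and 1 rose. Phyh (chromosome 2, 4919019 to 4938730, plus strand, GRCm38) encodes phytanoyl-CoA hydroxylase, which starts the breakdown of the branched fatty acid phytanic acid in peroxisomes. It was at 8.35, 8.47, 8.54 and 8.56 in control and 8.59, 8.64, 8.67 and 8.65 in vitC. Every vitC library lay above every control library, which held for no other member of the 36 and for 5.28% of all genes in either direction. The difference was 0.16 (standard error 0.062, limma adjusted p = 0.566, unpaired, and 0.0327 with the block), and the fold change in edgeR with the block was 1.17. Ogfod2 differed by 0.15 on 17 to 43 reads per library and P4htm by 0.10, while Asph, which hydroxylates aspartate and asparagine in EGF-like domains, differed by -0.093, none past the threshold. The scale compresses such low counts. On reads, edgeR with the block gave Ogfod2 a log2 fold change of 0.50 (standard error 0.19, adjusted p = 0.0806). For P4htm it was 0.75 (standard error 0.45, adjusted p = 0.306) and for Asph -0.16 (standard error 0.082, adjusted p = 0.197).

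The promoter of Phyh is shown because it was the gene whose groups did not overlap. RefSeq start windows were found for 32 of the 40 genes (44 starts). The 250 bases before the start of Phyh, chr2:4918746-4918995 on the plus strand of GRCm38.p6, are given from RefSeq with each CG dinucleotide, the site of DNA methylation, in capitals.
Phyh: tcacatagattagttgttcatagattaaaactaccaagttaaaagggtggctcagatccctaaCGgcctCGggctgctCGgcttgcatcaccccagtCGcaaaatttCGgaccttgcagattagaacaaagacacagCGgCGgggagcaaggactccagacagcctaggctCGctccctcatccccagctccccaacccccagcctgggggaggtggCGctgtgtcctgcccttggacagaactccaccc
The window holds 9 CG dinucleotides, beside a median of 6 over 32851 mouse starts and of 16.5 over the 44 starts of the family. The hypoxia response core ACGTG, searched on both strands, is not among its letters. That core was found in 9 of the 44 windows of the family (20.45%) and in 16.6% of all windows.

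Larger differences than those with vitC separated the cultures. The labels give the numbers without their meaning and name no sets, and the sets were chosen with earlier results of these data known. The p-values between sets thus describe a split already seen and are no independent test of it. In a limma model with treatment and culture set, 17 of the 36 genes differed between 35B and 35C on the one side and 10 and 11 on the other. Of these, 7 were higher in 35B and 35C, beside 18.9% of all genes, and 10 were lower, beside 21.5%. Libraries of one culture are not independent, and with the 2 libraries of each culture averaged, 6 were higher and 9 lower, beside 14.7% and 18.1% of all genes. Germ layer markers summed to 23.7 to 25.9 CPM in cultures 10 and 11 and 6.54 to 8.67 CPM in 35B and 35C. Of 8 tested, 2 were lower in 35B and 35C and 0 higher, namely Cdx2, which held most of the reads, by -1.11 and Krt7 by -0.21. Sox17 lay below 0 without passing, at -0.14 (limma adjusted p = 0.121). Pax6, Sox1, Gata4 and Foxa2 lay above 0 without passing, at 0.12, 0.076, 0.037 and 0.017. The part of these markers and of the rRNA repeat share in the result was not tested.

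Among the 36 genes, Kdm2b showed the largest of these differences. It stood at 9.07 ± 0.025 (SD, n = 4 libraries) in cultures 10 and 11 and at 8.49 ± 0.080 (SD, n = 4 libraries) in 35B and 35C, with the latter differing by -0.58 (standard error 0.051, limma adjusted p = 5.88e-08). With the libraries of each culture averaged, its standard error was 0.057 (limma adjusted p = 1.38e-05). Kdm3b followed at -0.34, then Phyhd1 at -0.30, Kdm5a at -0.29, Phf8 at -0.28 and Asph at -0.27. Of the exon bases of Phyhd1, 1249 of 2657 overlap the protein-coding gene Gm28035 on the same strand. Kdm6b, Fto, Alkbh5 and Alkbh8 were lower in 35B and 35C by smaller amounts, at -0.22, -0.21, -0.17 and -0.15. With the libraries of each culture averaged, Alkbh8 did not pass (limma adjusted p = 0.0603). Of the 4 genes that rose with vitC in the paired fit, 3 (Kdm3b, Alkbh5 and Fto) were lower in cultures 35B and 35C, beside 21.5% of all genes. Phyh differed there by 0.091 (limma adjusted p = 0.160). Whether this count is particular to these genes among all that rose in the paired fit was not tested.

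Jarid2 led the genes that were higher in 35B and 35C, at 10.68 ± 0.080 in cultures 10 and 11 and 10.96 ± 0.059 in 35B and 35C (SD, n = 4 libraries each), a difference of 0.28. Kdm5b, Hspbap1, Alkbh6, Alkbh3, Kdm4c and Alkbh7 followed, at 0.22, 0.21, 0.21, 0.21, 0.18 and 0.16. Of these, Alkbh7 did not pass with the libraries of each culture averaged (limma adjusted p = 0.0692). Within the family, the H3K4 demethylases were thus split, since Kdm5a was lower where Kdm5b was higher, and Kdm5c, at -0.12, did not pass (limma adjusted p = 0.0658). Kdm3a, at -0.11, did not pass either (limma adjusted p = 0.0509). Outside the family, the H3K4 demethylase Kdm5d was lower in 35B and 35C, at -0.46 (limma adjusted p = 8.94e-05).

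**Figure D4:**
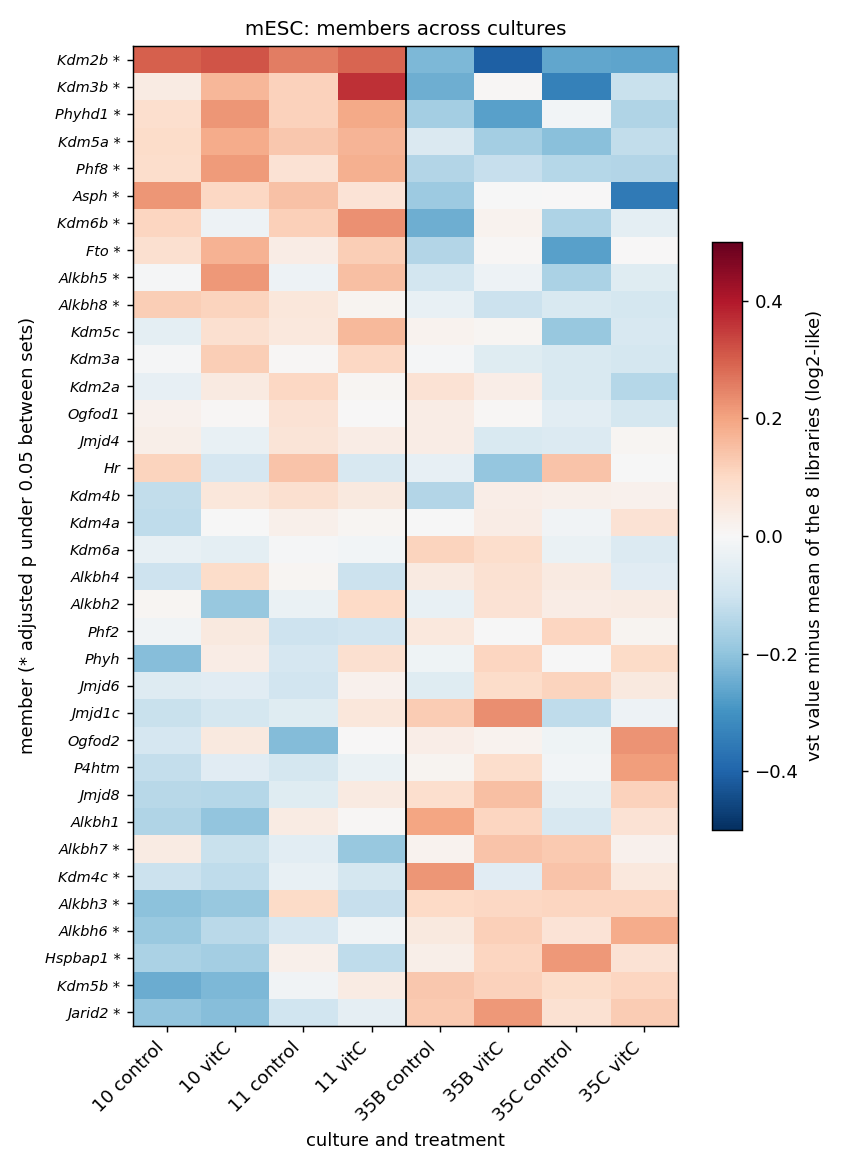
Value of the 36 tested genes in each mESC library, as the variance-stabilised value minus the mean of the 8 libraries (red above, blue below), with genes in order of the difference between culture sets. Stars mark an adjusted p under 0.05 between cultures 10 and 11 (left of the line) and 35B and 35C (right). The top 10 and bottom 7 genes carry stars, and Kdm2b shows the strongest contrast.

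For the 36 genes, the response to vitC was not shown to differ between the culture sets. The interaction of treatment and set was called for 0 of the 36 genes and for 0% of the 14631 genes in limma without the block. At an unadjusted p under 0.05, 223 genes were higher and 378 lower, of which 0 were members. In edgeR it was 0 genes as well, with 243 and 286 at the unadjusted level. With the replicate block, limma called 3 genes higher and 10 lower, of which 0 were members. At the unadjusted level that fit held 472 genes higher and 602 lower, with 1 member higher and 1 lower. For the 4 genes that rose in the paired fit, the interaction was 0.052 for Kdm3b (standard error 0.11), -0.12 for Alkbh5 (0.090), 0.12 for Fto (0.098) and -0.093 for Phyh (0.10).

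Other genes of the same chemistry and of the opposing pathways were set beside the family. The counts of each list with the block stand beside 6.36% of all genes higher and 4.44% lower. Among 19 tested genes of the other 2OGXs (21 of 24 listed were found), 1 rose and 1 fell with the block and 0 passed unpaired. Kdm5d, the Y-linked H3K4 demethylase, rose by 0.43 (limma adjusted p = 0.000465 with the block, 0.566 without), on 83 reads in the controls together and 197 in vitC. Tet2, an eraser of DNA methylation, fell by 0.26 (limma adjusted p = 0.00492 with the block, 0.914 without).

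The histone methyltransferases that write the marks erased by JmjC enzymes were 17 tested genes (21 listed). With the block, 6 rose and 1 fell, and 0 passed unpaired. The largest rises were those of the H3K9 methyltransferases Suv39h1 (0.24) and Setdb1 (0.23) and of the Polycomb subunit Suz12 (0.23), each higher in 4 of 4 pairs (limma adjusted p with the block 0.00678, 0.000403 and 0.000479). Among 11 m6A writers and readers, 0 passed in limma in either fit, with a median difference of 0.061.

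Genes that make or consume 2-oxoglutarate and succinate numbered 25, all tested. With the block 7 rose and 0 fell, and 0 passed unpaired. Glud1, which converts glutamate to 2-oxoglutarate, rose by 0.48 (limma adjusted p = 1.56e-07 with the block, 0.102 without). Ogdh, which consumes 2-oxoglutarate in the citric acid cycle, rose by 0.25 (limma adjusted p = 0.000189 with the block, 0.587 without).

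HIF target genes, whose transcription factor is marked for destruction by 2OGXs of the EGLN group, had a median difference of -0.14, beside -0.0020 over all genes. Of 20 tested, 1 fell unpaired, and 7 fell and 1 rose with the block. Ldha, lactate dehydrogenase A, fell by 0.71 and passed in both fits (limma adjusted p = 0.0221 unpaired). Unpaired and with 1 library left out, it passed in 3 of 8 fits, with limma adjusted p from 0.0240 to 0.101; the fits without control 2 or 3 or without vitC 1, 2 or 3 did not pass. The glycolytic genes Tpi1, Eno1 and Pgk1 fell by 0.35, 0.24 and 0.22 with the block. The naive markers also moved with the block, 2 higher and 5 lower of 12, and their part in these counts was not tested.

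In hESCs there was 1 library per condition, so the values below have no replicate check and no test. Ratios are log2 of the share of gene reads in vitC over that in control, with exact Clopper-Pearson 95% intervals that cover counting error only. With at least 50 reads over both libraries, 38 of the 40 genes could be given. Their ratios ran from -0.48 to 0.52 with a median of 0.0081, beside 0.019 over 13219 genes, and 19 of 38 lay above 0, beside 54.5% of all genes. Only 1 of the 38 passed a ratio of 0.5 in size, beside 6.69% of all genes. It was HSPBAP1, with 122 reads in control and 195 in vitC, a ratio of 0.52 (0.18 to 0.85). With the libraries scaled by the median ratio over genes instead of the total, its ratio was 0.499 and 0 members passed 0.5, beside 6.57% of all genes. On the deposited variance-stabilised scale the same gene differed by 0.072.

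KDM3B had 3140 and 3231 reads, 204 and 188 CPM, a ratio of -0.12 (-0.19 to -0.049). KDM3A had 615 and 784 reads, a ratio of 0.19 (0.035 to 0.34). In hESCs the pair thus stood the other way round from mESCs, where Kdm3b had the larger rise, and the difference between the species was not tested.

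ALKBH5 had 977 and 1157 reads, a ratio of 0.082 (-0.042 to 0.21), and FTO had 893 and 967, a ratio of -0.047 (-0.18 to 0.086). PHYH had 156 and 218 reads, a ratio of 0.32 (0.018 to 0.63). Thus the interval of PHYH lay above 0 and those of both m6A erasers held 0.

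KDM4A, KDM4B and KDM4C had ratios of 0.030 (-0.075 to 0.14), -0.0015 (-0.14 to 0.13) and -0.096 (-0.35 to 0.16). KDM2B was at 0.033, KDM5C at 0.099 (0.014 to 0.18), KDM6B at -0.052 and JMJD8 at 0.030. HR had 1 and 3 reads, a ratio of 1.42 with an interval of -2.22 to 7.14. BBOX1 had 0 reads in both libraries, which allows up to 0.195 and 0.175 CPM. Counting intervals lay above 0 for 5 of the 38 genes, beside 16.6% of all genes, and below 0 for 5, beside 12.6%. Scaled by the median ratio, they lay above 0 for 4 (without KDM5C), beside 14.2%, and below 0 for 8 (with PHF2, PHF8 and KDM4D), beside 15.3%.

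Per exon length, JARID2 and KDM3B led in the hESC control at 30.7 and 30.4 CPM per kilobase, then ALKBH7 at 27.1 and JMJD8 at 22.2. KDM5B, first in mESCs, was at 13.6 and ranked 12. KDM4C was at 2.33 and ranked 36 of 40, where Kdm4c ranked 12 in mESCs. PHF2 was at 6.18 and P4HTM at 5.87 in hESCs, beside 1.08 and 0.392 for their mouse counterparts. Species, medium and libraries all differ between these values, and no test was made.

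**Figure D5:**
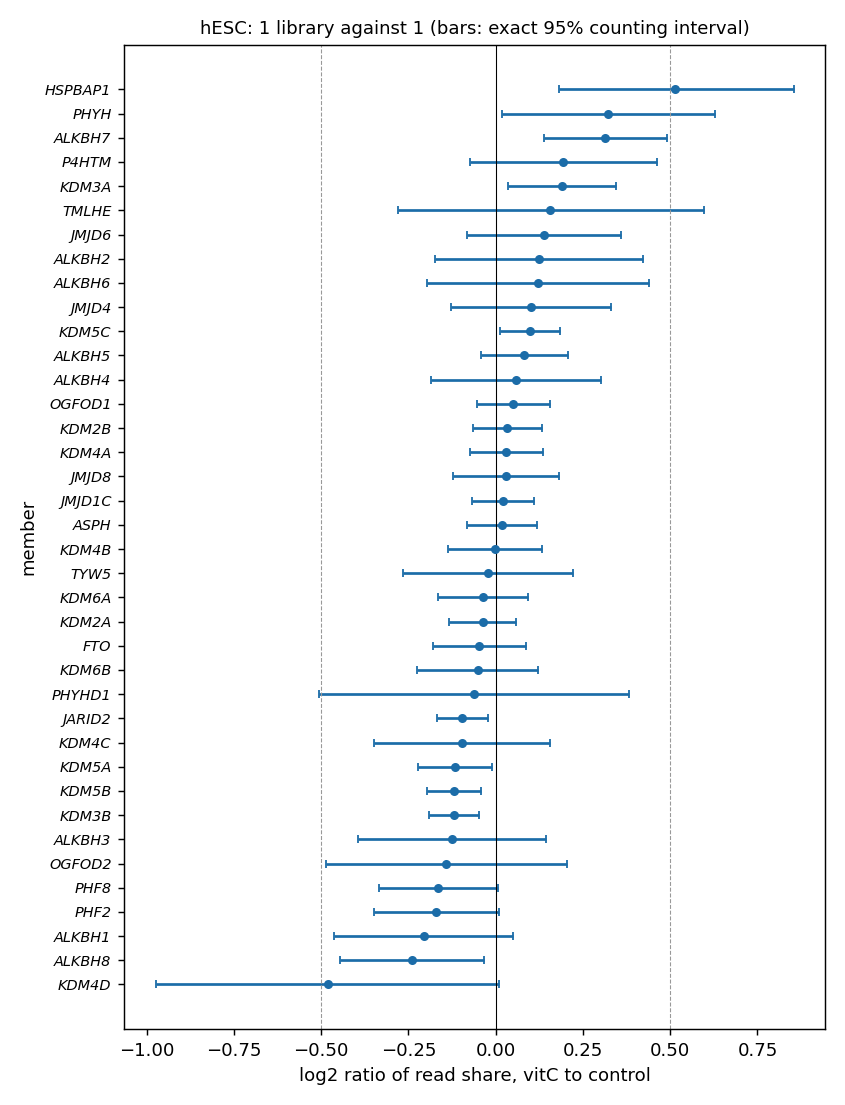
Log2 ratio of read share, vitC to control, for the 38 genes with at least 50 reads in the 2 hESC libraries. Bars are exact 95% counting intervals, and dashed lines stand at -0.5 and 0.5. Scaled by total gene reads, as drawn, HSPBAP1 at 0.52 is the only point outside the dashed lines, and KDM4D, the lowest at -0.48, has an interval that reaches 0.0098.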

How the data were processed

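Gene expression was measured by RNA-seq in 8 mESC and 2 hESC libraries. Per the labels and the paper, RNA was DNase-treated, prepared with an rRNA depletion or mRNA isolation kit and a directional library kit, and mapped to mm10 or hg38; the submitters' processing notes name Trim Galore, HISAT2 and DESeq2. The authors deposited variance-stabilised gene values on a log2-like scale and, for repeats, expected counts per subfamily, used here only for the share of rRNA repeats. Columns of other per-sample values (4) were not used. The gene annotation's version and the strand setting of the counting are not given in the sources used here.

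Inverting the transformation, with the smallest step of each library taken as 1 read, gave whole reads (tolerance 0.01) for 100% of 116385 mESC and 38034 hESC values above the lowest. CPM and levels per exon kilobase (union of coding transcripts' exons, GENCODE M21 and v44; gene spans from the same annotations) came from these reads.

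limma 3.58.1 (lmFit, eBayes with trend, R 4.3.3) was run on genes that exceeded the table's minimum in 4 or more libraries, with Benjamini-Hochberg adjustment over all of them, two-sided. The main design was unpaired, since the paper names DESeq2 and states no model terms. Libraries were paired by the number shared in their labels. Each control deviated from its group mean much as its partner did, with correlations over genes of 0.626 to 0.765 (-0.709 to -0.546 between the culture sets). Different numbers within a set gave 0.574 to 0.665, so these ranges overlap and separate the sets more clearly than the pairs. Each vitC library still correlated most with the control of its own number. The blocked value is given where it changes a call. Nothing states that the cultures were grown separately, so p-values measure the spread between these libraries. Alternatives were edgeR 4.0.16 and DESeq2 1.42.0 on recovered reads, the block, other filters, quantile normalization, eBayes without trend, median scaling in hESCs, each library left out and each culture set alone. Culture means, and the block with a pair left out, were added after seeing the data. Scripts were tested on simulated data.

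Values in every library are given for Kdm3a, Kdm3b and Kdm4a to Kdm4c, for genes past 0.05 in either limma fit, and for the largest unpaired difference in each role group. In other lists, genes past the threshold unpaired and up to 3 of the largest with the block are named. A further gene is not reported here. Members, lists and culture sets were chosen with earlier results of these data known. Intervals and limits from 3 counts cover counting error only, since the libraries had no stated molecular identifiers and PCR copies cannot be told from separate molecules.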

Additional observations from a re-analysis of the deposited data

Results flagged for a closer look

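Of 72 groups of 4 libraries (36 genes in control and in vitC mESCs), 5 held a library far from the other 3 relative to the range of the group. Chance alone flags about 1 in 20 such groups. Kdm3a in the control library of culture 35C was lowest at 10.50, and Hr in the control library of culture 35B was lowest at 6.71, on 10 reads. Jmjd6 was highest at 9.07 in the control library of culture 35C, Alkbh3 was lowest at 7.18 in that of culture 10, and Ogfod1 was lowest at 8.54 in the vitC library of culture 35C.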

How the results depend on the processing

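For the vitC comparison, 0 members were called without the block in limma, and the count was also 0 under the other filters, quantile normalization, eBayes without trend, edgeR, DESeq2, each culture set alone and each library left out. With the replicate block, limma called 4 members higher and 0 lower, and edgeR 4 higher and 1 lower; with a pair left out besides, 1 to 2 were higher (0 to 2 over all fits with samples left out). Over all genes, 47 rose and 3 fell in the unpaired fit, 931 and 650 with the block, 1059 and 888 in edgeR with the block, 102 and 16 in DESeq2, 27 and 1 among genes above the lowest value in all 8 libraries, 147 and 28 in cultures 10 and 11 alone, 4 and 0 in 35B and 35C alone, and 19 to 31 and 0 to 1 with a library left out.

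Among the genes named with values in every library, Kdm2b turned positive with some libraries left out (range -0.14 to 0.10) and in cultures 10 and 11 alone (0.027), also with pair 3 left out of the block fit (0.017), Kdm6b turned to -0.012 in cultures 10 and 11 alone, and Kdm3a to -0.032 in 35B and 35C alone; the cause was not tested. Kdm3b, Hr, Kdm4a, Kdm4b, Kdm4c, Kdm5c, Jmjd8, Alkbh5, Fto and Phyh kept their direction in 22 of 22 fits, but leaving out 1 library moved the sizes, from 0.13 to 0.29 for Kdm3b, 0.090 to 0.18 for Alkbh5, 0.087 to 0.20 for Fto, 0.12 to 0.19 for Phyh and -0.16 to -0.055 for Kdm4c. For culture sets, 5 to 8 members were higher and 9 to 12 lower in every fit. The interaction was called for 0 members in every fit, and with the block for 3 genes higher and 10 lower. In hESCs, HSPBAP1 moved from 0.52 to 0.072 on the deposited scale, which compresses low counts, so 0 members passed 0.5 there and 0 with median scaling, where intervals below 0 went from 5 to 8. Members with few reads such as P4htm and Hr are measured least precisely.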
